A study of Mus musculus with 12 samples.

Results

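Transcripts that mark the 2-cell-like state of mouse embryonic stem cells (ESCs) were measured by RNA sequencing in a clone with an altered Oct4 and in wild-type cells, before and after retinoic acid (RA). The genes described are Zscan4a, Zscan4c, Zscan4d, Zscan4f, Usp17la, Usp17le, Tcstv1, Tcstv3, Tmem92 and Zfp352, which were chosen by name and found by gene identifier among the 55416 genes of the deposited count tables, so they are 10 genes of 55416. Because most of them have near-identical copies, the 9 annotated copies of Zscan4, the 6 of Usp17l and the 2 of Tcstv were also summed per family. The 12 libraries fall into 4 groups of 3. C48S RA and C48S undifferentiated are libraries of Oct4 C48S clone 46, derived in the Bl/6J ESC line, in which a serine replaces a cysteine of Oct4, the pluripotency factor encoded by Pou5f1. WT RA and WT undifferentiated are libraries of wild-type Bl/6J ESCs. Undifferentiated cells of both genotypes were grown with ascorbic acid, with 1 µM PD, which inhibits the kinase MEK, and with 3 µM CHIR, which inhibits the kinase GSK3. RA cells of both genotypes had 1.5 mg/L RA for 2 days in medium without leukaemia inhibitory factor (LIF), a cytokine that maintains self-renewal. Titles and protocol give day 2 for every RA library, whereas the treatment label gives other days for some, which were not used. No label states if PD and CHIR stayed in the RA medium, so RA and the change of medium cannot be told apart, and since all C48S libraries are 1 clone, the allele and the clone cannot be told apart either. Since no label speaks of independent cultures behind the 3 libraries of a group, every p-value reflects library-to-library spread, possibly of technical origin.

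In cultures of mouse ESCs a small and changing fraction of cells at any time transcribes genes that are otherwise active in the mouse embryo at the 2-cell stage, when the zygotic genome is switched on. The transcription factor DUX is a known activator of this program in mouse, and ZSCAN4, a protein with a SCAN domain and zinc fingers, is its best known marker and is linked to telomere lengthening and genome stability in mouse ESCs. Retinoic acid is known to raise Zscan4 in mouse ESCs. The Usp17l genes encode deubiquitinating enzymes, Tcstv1 and Tcstv3 encode small proteins of the 2-cell embryo that have been linked to telomere length in mouse ESCs, Zfp352 encodes a zinc finger protein of the early embryo and Tmem92 a transmembrane protein. The libraries are bulk samples, so fewer cells in the 2-cell-like state and less of each RNA per cell cannot be told apart.

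All coordinates of genes are those of the count tables (GRCm39). The Zscan4 copies lie in 1 cluster, chr7:10528169-11348039, in which Zscan4a (chr7:10528169-10532984) and Zscan4d (chr7:10895301-10900086) are on the minus strand, and Zscan4c (chr7:10739672-10744474) and Zscan4f (chr7:11131842-11136245) on the plus strand. Usp17le (chr7:104417256-104426677, minus) and Usp17la (chr7:104506216-104511874, plus) lie elsewhere on chromosome 7. Tcstv1 (chr13:120354924-120356321, minus) and Tcstv3 (chr13:120778414-120779714, plus) are on chromosome 13, Tmem92 (chr11:94668043-94673529, minus) is on chromosome 11 and Zfp352 (chr4:90107057-90113939, plus) on chromosome 4.

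RefSeq promoters of another build, GRCm38.p6, were at hand for 5 of the 10 genes, and 4 are shown because they give the likeness of the Zscan4 copies as letters and a feature of Zfp352 that the others lack. Each line holds the 250 bases before the annotated start, 5′ to 3′, at chr7:11005495-11005744 (plus strand) for Zscan4c, chr7:11166149-11166398 (minus) for Zscan4d, chr7:11397665-11397914 (plus) for Zscan4f and chr4:90218570-90218819 (plus) for Zfp352. Capitals mark TATAAA, the core of a TATA box, in the Zscan4 promoters, and the repeated unit GGACAACACAC in that of Zfp352.
Zscan4c: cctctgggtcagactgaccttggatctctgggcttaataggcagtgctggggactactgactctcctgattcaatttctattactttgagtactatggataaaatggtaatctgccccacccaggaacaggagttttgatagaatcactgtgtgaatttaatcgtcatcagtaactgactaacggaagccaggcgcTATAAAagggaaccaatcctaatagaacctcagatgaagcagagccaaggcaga
Zscan4d: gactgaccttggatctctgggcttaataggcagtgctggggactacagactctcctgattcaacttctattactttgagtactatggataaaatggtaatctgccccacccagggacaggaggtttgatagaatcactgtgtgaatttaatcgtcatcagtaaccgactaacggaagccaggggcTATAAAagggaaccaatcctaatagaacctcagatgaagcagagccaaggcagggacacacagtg
Zscan4f: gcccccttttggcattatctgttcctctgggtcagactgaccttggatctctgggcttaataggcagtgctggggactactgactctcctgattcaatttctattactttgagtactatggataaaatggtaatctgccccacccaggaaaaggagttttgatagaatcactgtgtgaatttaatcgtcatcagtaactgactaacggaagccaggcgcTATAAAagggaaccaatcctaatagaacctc
Zfp352: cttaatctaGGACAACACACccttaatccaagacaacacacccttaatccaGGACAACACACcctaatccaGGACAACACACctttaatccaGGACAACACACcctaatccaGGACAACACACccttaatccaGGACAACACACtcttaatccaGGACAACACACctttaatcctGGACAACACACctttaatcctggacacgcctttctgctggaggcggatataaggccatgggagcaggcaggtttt
With the 50 bases after the start included and aligned without gaps, the promoter of Zscan4c was 99.3% identical to that of Zscan4f over 277 bases and 97.2% identical to that of Zscan4d over 289 bases, whereas it matched that of Zfp352 at 29.7% of 283 bases. TATAAA, searched on both strands in these windows of 250 bases before to 50 after the start, was in 3 of the 5 promoters (Zscan4c, Zscan4d and Zscan4f, beginning 54, 65 and 31 bases before the start) and in 13.6% of the 32851 promoters of the table. The DUX motif (TGATT and AATCA with 1 base between them) was in 0 of the 5 and in 0.0335% of the table, the ZSCAN4 motif TGCACAC in 0 of the 5 and in 4.4%, and the octamer ATGCAAAT, bound by Oct4, in 0 of the 5 and in 1.74%. Direct repeats of AGGTCA spaced by 5 or by 2 bases, the form bound by RA receptors, were in 0 of the 5 and each in 0.00913% of the table. The 3 TATAAA matches overlapped no other match, and a match or its absence says only whether these letters are in the windows. The unit GGACAACACAC was noticed after the sequences were seen and occurs 8 times before the start of Zfp352, in the 1 promoter of the table that holds it 2 or more times.

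Library totals lay between 8678088 and 13597098 counts. All 10 genes passed the low-count filter over the 12 libraries. Within the undifferentiated libraries alone only 5 would have passed (Zscan4a, Zscan4c, Zscan4d, Usp17le and Tmem92), and Zscan4f, Usp17la, Tcstv1, Tcstv3 and Zfp352 entered the comparison before RA through their counts after RA. The replicates of each group differed by more than sampling noise (chi-square per degree of freedom 1.58 to 2.20 for most pairs), except that replicate 3 of C48S undifferentiated was much further from the other 2 libraries of its group (9.33 and 9.03). Pou5f1 RNA does not report on the amino acid change. It averaged 68.3 ± 3.2 CPM in C48S RA and 23.0 ± 1.1 CPM in WT RA, and 557 ± 83 CPM in C48S undifferentiated and 585 ± 5 CPM in WT undifferentiated (SD, n = 3 each). CPM, the standard scaling of a count by library size, was computed here with TMM-scaled library sizes. Tests are edgeR's quasi-likelihood test with Benjamini-Hochberg adjustment over the 17940 genes tested, a gene being called at an adjusted p under 0.05, and changes are log2 fold changes ± SE.

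On day 2 of RA every one of the 10 genes was lower in C48S than in WT, and no gene's C48S RA values overlapped its WT RA values. Of all genes tested, 29.6% were likewise lower in C48S RA without overlap. The Zscan4 family sum was 5.69-fold lower, the Usp17l sum 10.4-fold lower and the Tcstv sum 10.05-fold lower. The members' log2 changes ran from -3.78 (Usp17la) to -2.42 (Zscan4f) with a median of -3.02, beside a median of 0.023 over all genes tested. Of all genes tested, 54.5% were called in this comparison, 25.7% lower and 28.8% higher, so the call alone says little. A log2 change of -2.42 or below was seen in 2.69% of all genes. That cut is the weakest change among the 10 themselves, so all 10 meet it by construction and the share only describes its size.

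Zscan4d gave 19.2, 18.7 and 16.5 CPM in the C48S RA libraries and 102, 117 and 108 CPM in the WT RA libraries (log2 change -2.59 ± 0.09, adjusted p = 8.49e-24). Zscan4a gave 13.9, 12.9 and 12.8 CPM in C48S RA and 84.5, 76.0 and 76.2 CPM in WT RA (-2.57 ± 0.10, adjusted p = 3.39e-22). In both, the replicates of a group lay close together and the C48S values were far below. Zscan4c gave 11.2, 12.3 and 11.97 CPM in C48S RA and 75.0, 73.7 and 70.1 CPM in WT RA (-2.62 ± 0.10, adjusted p = 6.69e-22). Zscan4f, whose transcript is the least distinct of the 10, gave 5.99, 11.7 and 7.69 CPM in C48S RA and 46.6, 46.7 and 39.9 CPM in WT RA (-2.42 ± 0.18, adjusted p = 2.10e-09). Zscan4f was the most scattered of the 4 among the C48S RA libraries, replicate 2 being the highest, and its groups still did not overlap. Summed over the 9 copies, Zscan4 had 1329, 1156 and 1243 counts in C48S RA and 5628, 7005 and 5844 counts in WT RA (-2.51 ± 0.06, adjusted p = 8.54e-28).

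The deubiquitinase genes were further apart between the lines than the Zscan4 copies. Usp17le gave 14.8, 12.6 and 11.8 CPM in C48S RA and 134, 129 and 129 CPM in WT RA (-3.32 ± 0.10, adjusted p = 1.29e-25). Usp17la gave 6.38, 2.81 and 4.596 CPM in C48S RA and 66.3, 66.7 and 59.96 CPM in WT RA (-3.78 ± 0.18, adjusted p = 3.89e-15). C48S RA replicate 2 was the lowest for Usp17la, unlike for Zscan4f. The Usp17l family sum was 430, 268 and 314 counts in C48S RA and 2896, 3336 and 2835 counts in WT RA (-3.37 ± 0.07, adjusted p = 4.26e-28). Per library, the Usp17l sum was 0.324, 0.232 and 0.253 of the Zscan4 sum in C48S RA and 0.515, 0.476 and 0.485 of it in WT RA. This ratio did not overlap between the lines after RA, and the difference between the families' changes was not tested further.

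Tcstv1 gave 1.31, 1.87 and 1.27 CPM in C48S RA and 16.0, 18.3 and 14.9 CPM in WT RA (-3.48 ± 0.23, adjusted p = 2.04e-16). Tcstv3 gave 2.07, 1.31 and 2.06 CPM in C48S RA and 15.4, 16.8 and 18.3 CPM in WT RA (-3.19 ± 0.23, adjusted p = 2.80e-15). Both members of this small family thus stayed at or below 2.07 CPM in the C48S RA libraries and at or above 14.9 CPM in the WT RA libraries. Zfp352 gave 2.23, 1.78 and 2.38 CPM in C48S RA and 25.1, 22.0 and 20.9 CPM in WT RA (-3.39 ± 0.21, adjusted p = 2.68e-17). Tmem92 gave 5.99, 5.80 and 7.45 CPM in C48S RA and 50.8, 41.3 and 48.7 CPM in WT RA (-2.86 ± 0.13, adjusted p = 1.99e-20). Tmem92 is on chromosome 11, where the 1292 tested genes with at least 1 CPM had a median log2 change of -0.48 after RA and -0.53 before RA, against 0.040 and 0.013 over all such genes. The part of that shift in the Tmem92 values was not tested. The medians of chromosomes 4, 7 and 13, which hold the other 9 genes, lay between -0.015 and 0.11 in both comparisons.

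**Figure D1:**
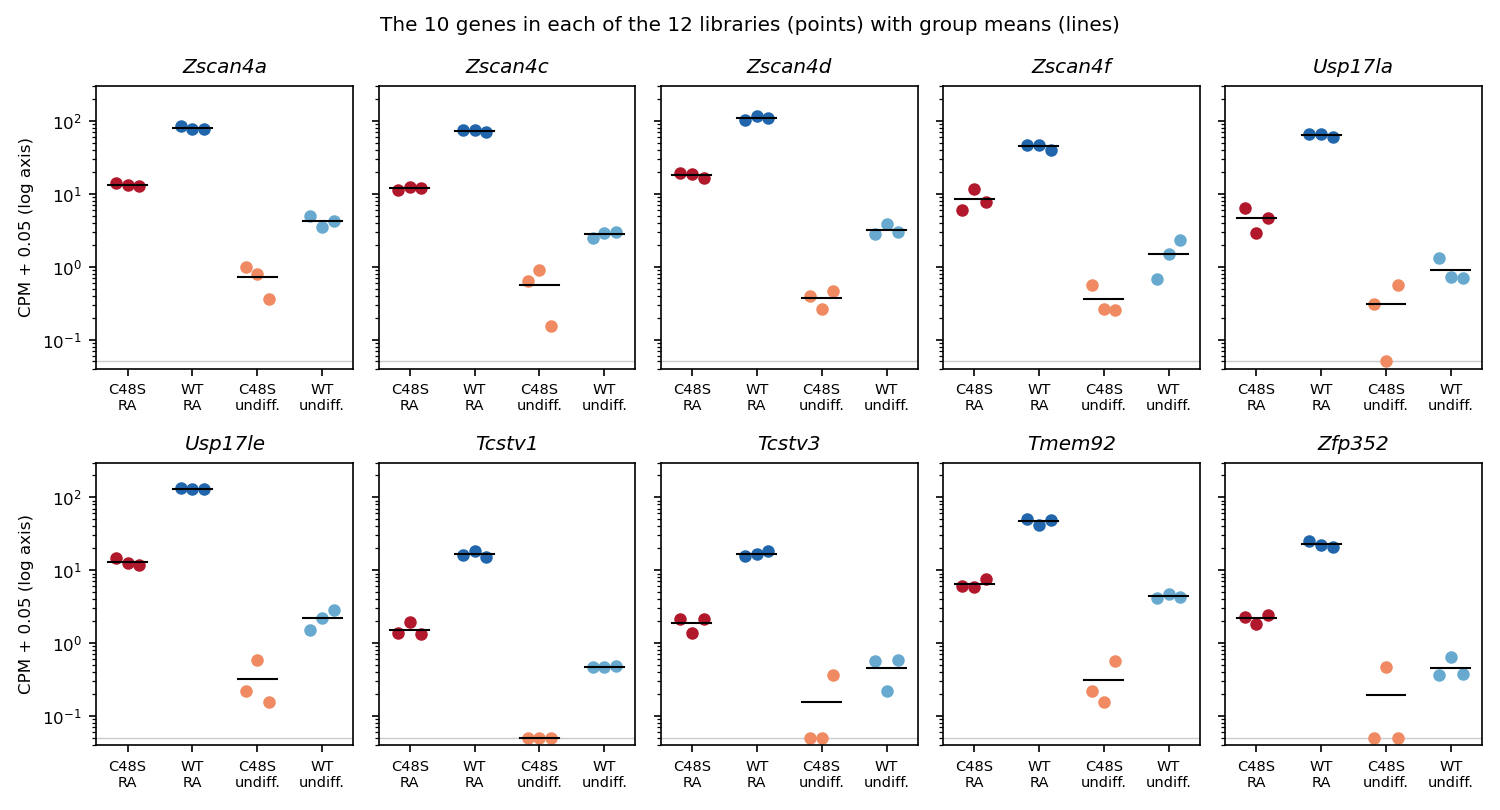
Each panel plots 1 gene as CPM + 0.05 on a log axis, with a point per library and a line at the mean of the 3 libraries of a group. In all 10 panels the WT RA points are the highest and the C48S RA points come next, above both undifferentiated groups, and points on the grey line at the bottom are libraries with no count.

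Before RA the same genes were at low levels, and 8 of the 10 were called lower in C48S than in WT, against 28.1% of all genes tested called lower, 27.5% called higher and 55.6% called in either direction. None of the 10 reached the low-count filter's cut of about 0.952 CPM in C48S undifferentiated, so this count is no support of its own. The log2 median of the 10 was -2.48 (0.0014 over all genes), or -2.25 with Tcstv1 at its bound. The Zscan4 family sum was 7.18-fold lower, with 39, 37 and 18 counts in C48S undifferentiated and 203, 272 and 199 counts in WT undifferentiated (-2.84 ± 0.15, adjusted p = 1.67e-19). The Usp17l sum was 6.20-fold lower, with 10, 7 and 8 counts in C48S undifferentiated and 46, 66 and 44 counts in WT undifferentiated (-2.63 ± 0.31, adjusted p = 8.45e-11). Replicate 3 had the fewest Zscan4 counts of the C48S undifferentiated libraries but not the fewest of Usp17l.

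Among single genes before RA, Tmem92 gave 0.170, 0.107 and 0.517 CPM in C48S undifferentiated and 4.09, 4.62 and 4.23 CPM in WT undifferentiated (-4.0025 ± 0.54, adjusted p = 1.13e-11). Zscan4d gave 0.339, 0.213 and 0.414 CPM in C48S undifferentiated and 2.73, 3.78 and 2.93 CPM in WT undifferentiated (-3.25 ± 0.44, adjusted p = 2.47e-10). In both genes the groups lay well apart, but the C48S undifferentiated values of Tmem92 spread over 2, 1 and 5 counts, with replicate 3 the highest. Usp17le had 2, 5 and 1 counts in C48S undifferentiated and 14, 26 and 26 counts in WT undifferentiated (-3.00 ± 0.53, adjusted p = 1.31e-07). Zscan4a had 11, 7 and 3 counts in C48S undifferentiated and 46, 41 and 39 in WT undifferentiated (-2.58 ± 0.33, adjusted p = 7.93e-10), and Zscan4c had 7, 8 and 1 against 23, 34 and 27 (-2.37 ± 0.39, adjusted p = 1.53e-07). In each of these genes every C48S undifferentiated library was below every WT undifferentiated library.

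The other 5 genes rested on few counts before RA. Zscan4f had 6, 2 and 2 counts in C48S undifferentiated and 6, 17 and 21 in WT undifferentiated (-2.11 ± 0.77, adjusted p = 0.0126), and without C48S undifferentiated replicate 3 the adjusted p was 0.0540. Usp17la had 3, 0 and 5 counts in C48S undifferentiated and 12, 8 and 6 in WT undifferentiated (-1.67 ± 0.77, adjusted p = 0.0466), and leaving out 1 library ended this call for 8 of the 12 libraries, with adjusted p up to 0.176. Tcstv1 had 0 counts in the 3 C48S undifferentiated libraries and 4, 5 and 4 in WT undifferentiated, so it was at least 4.36-fold lower against a floor of 3 counts over the C48S group (adjusted p = 0.000347). The remaining pair did not pass the test. Tcstv3 had 0, 0 and 3 counts in C48S undifferentiated and 5, 2 and 5 in WT undifferentiated, a 4.02-fold ratio with a counting interval of 1.09 to 22.2 (95%, exact) and an adjusted p of 0.0581. Zfp352 had 0, 4 and 0 counts in C48S undifferentiated and 3, 7 and 3 in WT undifferentiated (-1.62 ± 0.90, adjusted p = 0.0786). In this pair the groups overlapped and in the other 8 genes they did not, beside 29.6% of all genes tested that were lower in C48S undifferentiated without overlap. Leaving out the library that held all their C48S undifferentiated counts made both called (Tcstv3 without C48S undifferentiated replicate 3, adjusted p = 0.00188, and Zfp352 without replicate 2, adjusted p = 0.00160). Each gene then had no count left in C48S undifferentiated, so both of these calls are no support of their own. Tcstv3 was also called without WT undifferentiated replicate 2 (adjusted p = 0.0251). Together Tcstv1 and Tcstv3 had 0, 0 and 3 counts in C48S undifferentiated and 9, 7 and 9 in WT undifferentiated (-2.93 ± 0.90, adjusted p = 0.00034). Without C48S undifferentiated replicate 3, the library that stood apart, 8 of the 10 genes were called lower, but not the same 8. Zscan4f was no longer called and Tcstv3, then without a count in C48S undifferentiated, was added. The family sums then changed by -2.61 (Zscan4), -2.65 (Usp17l) and, with no Tcstv count left in C48S undifferentiated, a fitted -6.18 that is no bound.

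RA with the change of medium raised all 10 genes in both lines. In C48S cells 10 of 10 were called higher, against 39.0% of all genes tested (34.6% were called lower), and in WT cells 10 of 10 against 40.9% (37.4% lower). These counts are no support of their own, because the low-count filter asks for about 0.952 CPM in 3 libraries: none of the 10 reached that in the C48S undifferentiated libraries and 5 did in the WT undifferentiated libraries (Tmem92, Usp17le, Zscan4a, Zscan4c and Zscan4d), so that the rest were tested only because they are high after RA. The call in either direction was made for 73.6% of all genes in C48S and 78.3% in WT. The log2 median of the 10 was 4.53 in C48S (4.37 with Tcstv1 at its bound) and 5.17 in WT, beside 0.049 and 0.055 over all genes. The Zscan4 sum was 33.6-fold higher in C48S RA than in C48S undifferentiated (5.07 ± 0.15, adjusted p = 3.17e-30) and 26.7-fold higher in WT RA than in WT undifferentiated (4.74 ± 0.07, adjusted p = 2.22e-34). The Usp17l sum was 33.8-fold higher in C48S (5.08 ± 0.29, adjusted p = 2.74e-23) and 56.5-fold higher in WT (5.82 ± 0.13, adjusted p = 1.75e-32).

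Among single genes the change with RA in C48S ran from 3.93 ± 0.80 (Zfp352) to 5.75 ± 0.43 (Zscan4d), apart from Tcstv1, which with 17, 20 and 16 counts in C48S RA and 0 in C48S undifferentiated was at least 14.999-fold higher. In WT it ran from 3.43 ± 0.15 (Tmem92) to 6.23 ± 0.39 (Usp17la). Tcstv3 had 27, 14 and 26 counts in C48S RA against 3 in the C48S undifferentiated group, an 18.96-fold ratio (counting interval 6.22 to 94.3). Each of the 10 genes kept the same order of groups by mean level, WT RA above C48S RA above WT undifferentiated above C48S undifferentiated. Neighbours in that order did not overlap, except C48S undifferentiated and WT undifferentiated for Tcstv3 and Zfp352. Of all genes tested, 11.3% had the first 3 groups in this order without overlap and 3.04% had all 4. With RA, 39.3% of all genes were higher without overlap in C48S and 42.0% in WT, and 42.4% were higher in C48S RA than in WT undifferentiated. Thus C48S cells after RA still had more of each transcript than WT cells before RA, for example 103 ± 5 CPM of summed Zscan4 in C48S RA and 21.9 ± 0.8 CPM in WT undifferentiated (SD, n = 3 each). The comparisons share groups: the C48S RA libraries enter both the comparison of the lines after RA and the RA change in C48S.

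**Figure D2:**
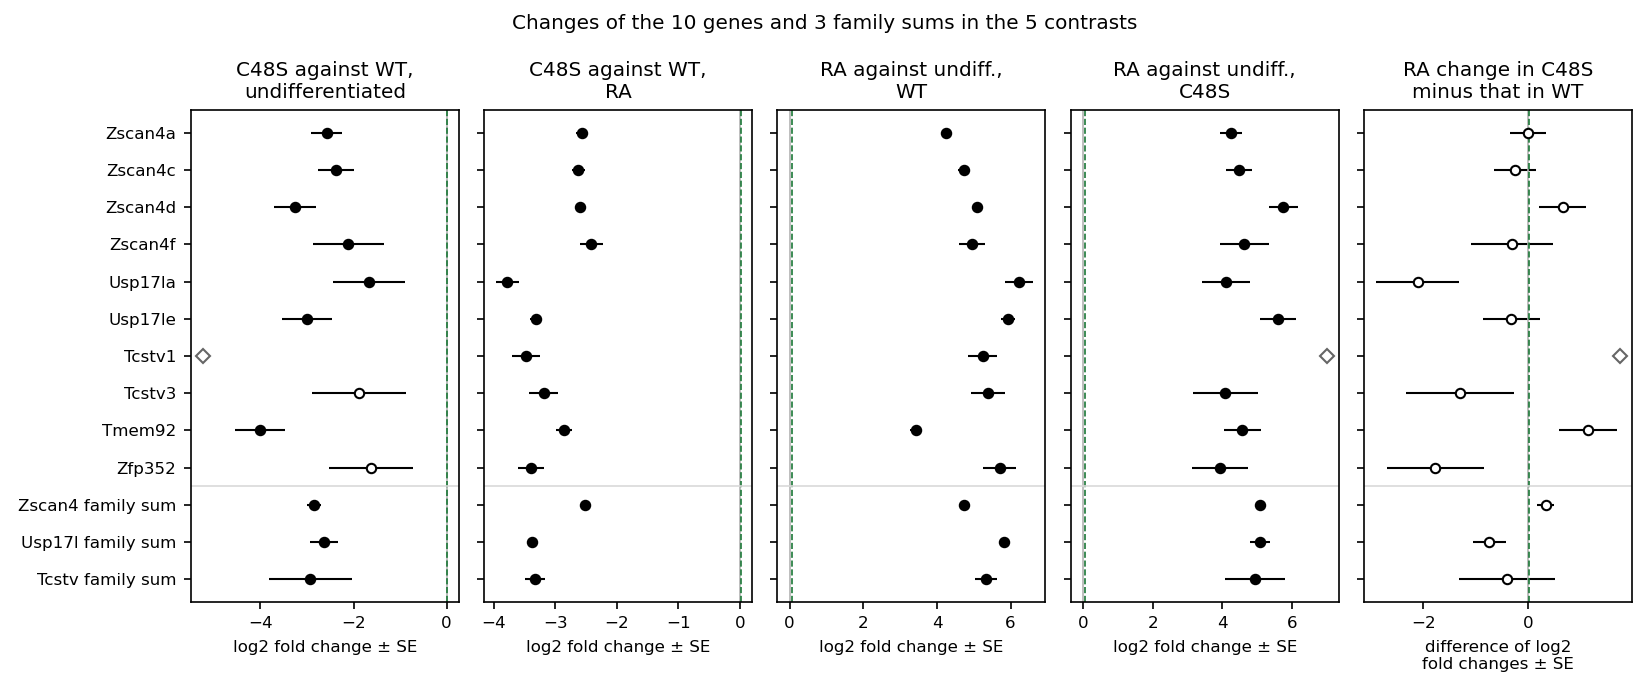
Log2 fold changes ± SE of the 10 genes and the 3 family sums in the 4 comparisons, and in the last panel the difference of the RA changes, with filled points for an adjusted p under 0.05. The 4 comparisons lie to 1 side of 0 for every gene while the last panel scatters around 0 with no filled point. Grey diamonds are fitted values of Tcstv1, which had no count in C48S undifferentiated and whose size is no bound, and dashed lines are the median of all genes tested.

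Whether RA changed these genes differently in the lines was tested as an interaction, in which a positive value means a larger rise in C48S. None of the 10 was called by edgeR over all 12 libraries with the low-count filter (2 had an unadjusted p under 0.05). Of all genes tested, 39.4% were called, 22.2% with a higher and 17.2% with a lower value in C48S. DESeq2 called 1, Usp17la (-2.10, adjusted p = 0.00442), for which edgeR gave -2.11 ± 0.79 and an adjusted p of 0.0736. Without the low-count filter edgeR called Usp17la as well (adjusted p = 0.0135), as did 4 fits with 1 library left out. Tmem92 went the other way (1.14 ± 0.55, adjusted p = 0.0538). With 1 library left out its adjusted p ran from 0.00890 (without C48S undifferentiated replicate 3) to 0.231 (without replicate 2 of that group). For the family sums the difference was 0.34 ± 0.16 for Zscan4 (95% interval 0.018 to 0.65, adjusted p = 0.0898), -0.74 ± 0.32 for Usp17l (-1.36 to -0.12, adjusted p = 0.0827) and -0.40 ± 0.91 for Tcstv (-2.19 to 1.38, adjusted p = 0.853). The Tcstv value turned to a fitted 2.83 without C48S undifferentiated replicate 3, which held all 3 Tcstv counts of its group, so its direction is not settled. The intervals for single genes were wide, for example -1.86 to 1.24 for Zscan4f, so the low counts before RA leave room for differences of several-fold.

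Levels were compared between genes only per length, as counts per kilobase scaled to the same sum in every library (TPM). In WT RA, Usp17le was the highest at 248 ± 5 TPM, ahead of Zscan4d at 181 ± 12 and Zscan4a at 130 ± 8 TPM, and Zfp352 was the lowest of the 10 at 37.5 ± 3.6 TPM (SD, n = 3 each). In C48S RA the order at the top changed, with Zscan4d at 29.97 ± 2.10 TPM, Usp17le at 24.7 ± 2.8 and Zscan4a at 21.8 ± 0.9 TPM, of which the last pair did not differ beyond their spread. Before RA, Zscan4a was the highest in C48S undifferentiated at 0.939 ± 0.474 TPM, next to Zscan4c at 0.737 ± 0.551 TPM. Tmem92 was the highest in WT undifferentiated at 5.96 ± 0.37 TPM, next to Zscan4a at 5.53 ± 0.92 TPM. Both gaps were within their spread. Tmem92 was 11.03 ± 1.67 TPM in C48S RA and 80.9 ± 8.6 TPM in WT RA. By mean it was thus the highest of the 10 in WT undifferentiated and among the lowest 3 in WT RA, there within the spread of Tcstv3 (81.4 ± 6.8 TPM). These per-length levels of copies depend on how many read pairs could be placed on each.

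**Figure D3:**
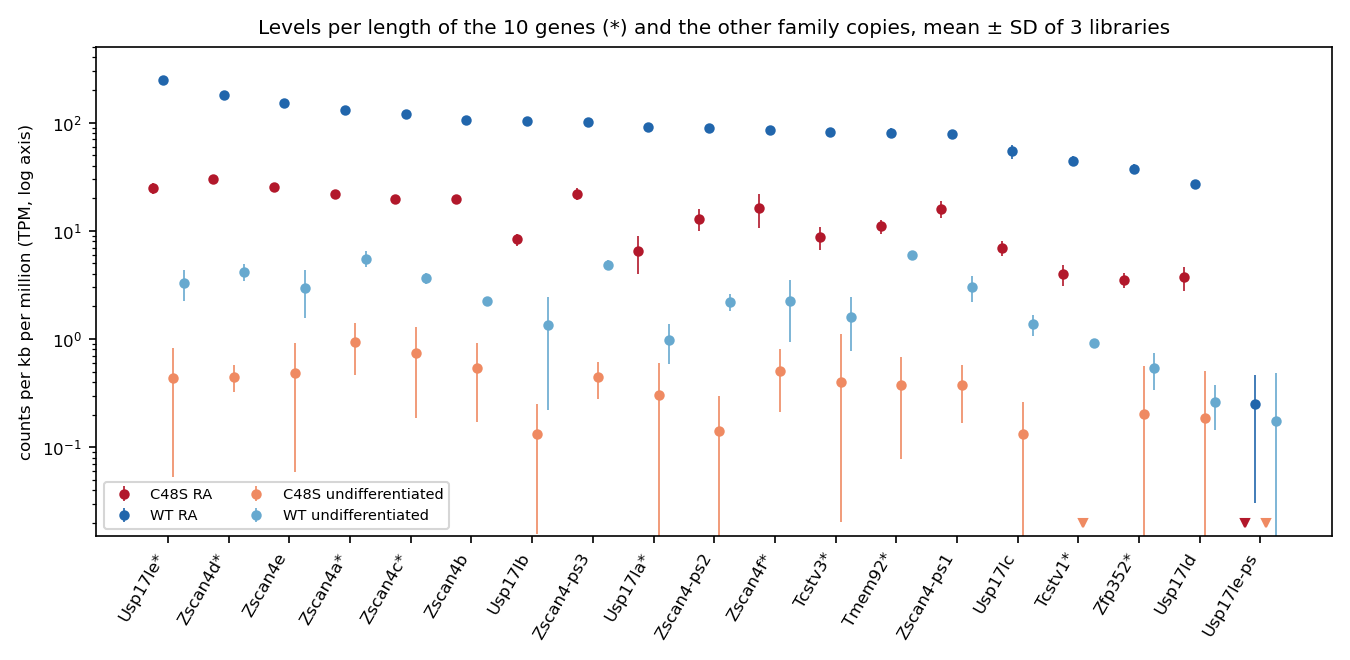
Levels per length (TPM, log axis) of the 10 genes, marked with an asterisk, and the other annotated copies of their families, ordered by the level in WT RA, as mean ± SD of 3 libraries per group. The lower SD bars are cut short of 0, and triangles mark groups with no count. WT RA is above C48S RA for all 10 genes, and of the 10 the gap is widest for Usp17la, Tcstv1 and Zfp352.

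Single copies share much of their sequence. Of the 100-base windows along the longest GENCODE M21 transcript, 10.5% were found in no other gene's transcripts for Zscan4f, 27.2% for Zscan4c, 60.9% for Zscan4a and 70.4% for Zscan4d. The share was 91.3% for Usp17le, 96.2% for Usp17la, 92.2% for Tcstv3, 95.9% for Tcstv1, 99.4% for Zfp352 and 100% for Tmem92. With 50-base windows the shares were lower, at 4.66% for Zscan4f, 69.2% for Usp17le, 79.6% for Usp17la, 68.6% for Tcstv3 and 83.2% for Tcstv1. The counting left out pairs that map to several places, so the Zscan4 copies are undercounted to differing degrees and the sum of a family is also short of its full level. The largest share of the Zscan4 counts was that of Zscan4d after RA, 17.6% in C48S RA (16.7 to 18.8% over the 3 libraries) and 18.7% in WT RA (17.6 to 19.4%). Zscan4a took 12.9% in C48S RA and 13.5% in WT RA, and 21.3% in C48S undifferentiated and 19.1% in WT undifferentiated. Its share was thus lower in RA than before RA in every library of either line.

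Outside the 10 genes, the families' other 8 tested copies were looked at in the same way. All 8 were called lower in C48S RA than in WT RA, against 25.7% of all genes tested. They are not independent measurements, since for Zscan4b and Zscan4e only 21.3% and 15.9% of the 100-base windows were found in no other gene's transcripts. Before RA 7 of the 8 were called lower, against 28.1% of all genes tested. None of the 8 reached the filter's cut in C48S undifferentiated, so this count is no support of its own. The copy not called was Usp17ld, which had 4, 0 and 0 counts in C48S undifferentiated and 2, 1 and 2 in WT undifferentiated. Zscan4-ps3, annotated as a pseudogene copy, gave 13.4 ± 1.9 CPM in C48S RA and 61.8 ± 3.7 CPM in WT RA (-2.21 ± 0.10, adjusted p = 7.01e-20). Before RA it gave 0.317 ± 0.109 CPM in C48S undifferentiated and 3.64 ± 0.44 CPM in WT undifferentiated (-3.45 ± 0.46, adjusted p = 1.01e-10; SD, n = 3 each). It was the only one of the families' tested copies, members included, that passed the test of the interaction (1.23 ± 0.47, adjusted p = 0.0161), and its share of the Zscan4 counts was 12.95% in C48S RA and 10.6% in WT RA, but 10.7% in C48S undifferentiated and 16.6% in WT undifferentiated. Its ranges of shares did not overlap between the lines in either state.

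**Figure D4:**
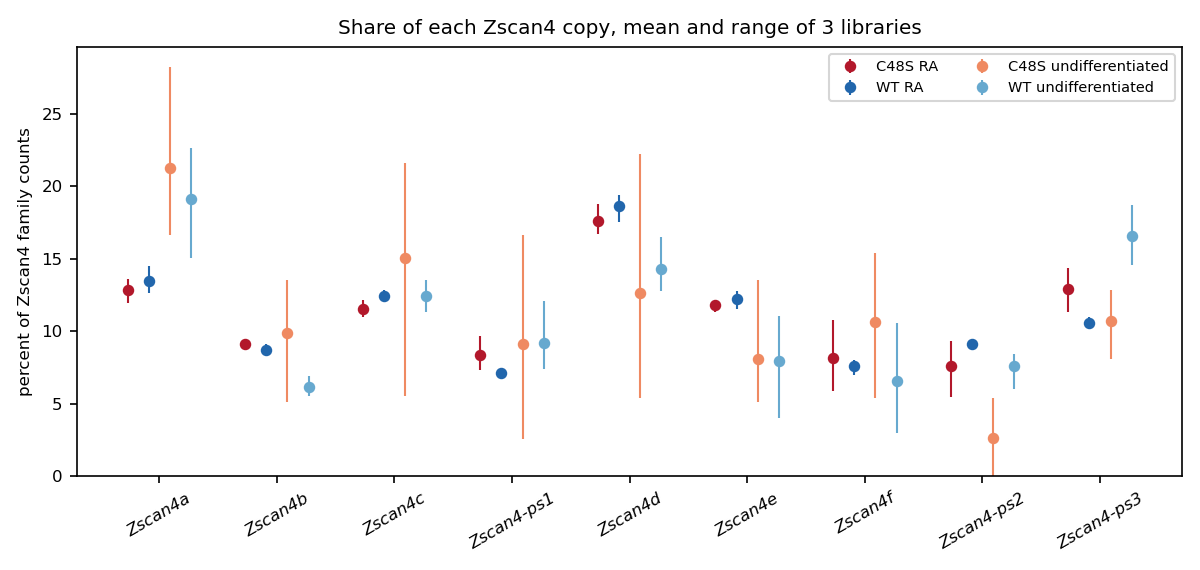
Share of each annotated Zscan4 copy in the counts of the family, as the mean and range of the 3 libraries of each group. After RA the shares differ by a few percent at most between C48S and WT, with Zscan4-ps3 and Zscan4-ps1 higher and Zscan4c lower in C48S RA without overlap, while before RA the ranges are wide because the C48S undifferentiated libraries hold 18 to 39 Zscan4 counts in all.

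A list of 49 other transcripts of the 2-cell stage was set beside the 10 genes, of which 34 were tested and 8 of those are the family copies above. After RA 34 of 34 were called lower in C48S (median -2.68), against 25.7% of all genes tested. Of these, 20 reached the filter's cut in the C48S RA libraries themselves, and all 20 were called lower, whereas the rest were tested only because they are high in WT RA and had to be lower in C48S. Before RA 27 of 34 were called lower, against 28.1% of all genes tested. None of the 34 reached the cut in C48S undifferentiated, so that count is no support of its own. The median of the 34 was -3.13, or -2.47 with the 8 genes without a count in C48S undifferentiated at their bound. Outside the 3 families, 12 of the 26 tested reached the cut in C48S RA, and all 12 were called lower after RA. Before RA 20 of the 26 were called lower, though none of the 26 reached the cut in C48S undifferentiated. With RA in WT, 9 of the 34 reached the cut in WT undifferentiated and all 9 were called higher, against 40.9% of all genes tested. Gm20767 gave 6.84 CPM on average in C48S RA and 48.2 in WT RA (-2.81 ± 0.13, adjusted p = 1.54e-20), and Pramef25, of the PRAME family, 12.4 CPM in C48S RA and 58.6 in WT RA (-2.25 ± 0.10, adjusted p = 3.78e-20). Many of these genes also have near-identical copies, so the counts of genes are not counts of independent measurements.

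Genes known to act on the 2-cell-like state were called in both directions after RA. Of 11 listed activators 7 were tested, and after RA 3 were called higher in C48S and 3 lower, with a median of -0.061. Of all genes tested, 28.8% were called higher and 25.7% lower, so these counts say little about the list. Duxf3, the symbol under which the tables' Dux gene is named, had 6, 1 and 3 counts in C48S RA and 31, 25 and 18 in WT RA (-3.05 ± 0.58, adjusted p = 1.95e-06), and 0, 0 and 1 in C48S undifferentiated and 1, 6 and 3 in WT undifferentiated (-2.93 ± 1.69, adjusted p = 0.0277). It is part of a repeated array, so its counts are uncertain, but the groups did not overlap after RA. Dppa2, which acts upstream of Dux in mouse ESCs, gave 162 ± 9 CPM in C48S RA and 226 ± 12 CPM in WT RA (-0.48 ± 0.06, adjusted p = 1.30e-08), and 126 ± 10 CPM in C48S undifferentiated and 261 ± 17 CPM in WT undifferentiated (-1.05 ± 0.06, adjusted p = 1.12e-16). Its partner Dppa4 differed in direction, with 91.4 ± 4.4 CPM in C48S RA and 56.0 ± 3.2 CPM in WT RA (0.71 ± 0.06, adjusted p = 4.71e-12; SD, n = 3 each). Nelfa, a subunit of the elongation factor NELF known as a maternal driver of the state, was lower in C48S RA (-1.11 ± 0.05, adjusted p = 4.65e-19). The nuclear receptor gene Nr5a2 (2.07 ± 0.17, adjusted p = 6.42e-12) and Klf5 (0.77 ± 0.06, adjusted p = 7.12e-14) were higher in C48S RA. Before RA 4 of the 7 were called lower and 0 higher, beside 28.1% and 27.5% of all genes tested. Among the 4 was Dppa3, a maternal factor that was at 7.54 CPM on average in C48S undifferentiated and 38.9 CPM in WT undifferentiated (-2.37 ± 0.13, adjusted p = 1.31e-17).

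Of 26 chromatin regulators and other factors known to hold the state in check, 10 were called higher in C48S after RA and 5 lower (median 0.076). Before RA 6 were called higher and 16 lower (median -0.22). Of all genes tested, 28.8% were called higher and 25.7% lower after RA, and 27.5% higher and 28.1% lower before RA. Ehmt2, a histone H3 lysine methyltransferase, was at 275 CPM in C48S RA and 146 CPM in WT RA (0.92 ± 0.05, adjusted p = 4.34e-17). Lin28a, an RNA-binding protein, was at 160 CPM in C48S undifferentiated and 50.3 CPM in WT undifferentiated (1.67 ± 0.06, adjusted p = 6.24e-23), while L3mbtl2 was at 209 CPM in C48S undifferentiated and 331 CPM in WT undifferentiated (-0.66 ± 0.05, adjusted p = 6.07e-14). With RA 18 of the 26 were called lower and 6 higher in C48S, beside 34.6% and 39.0% of all genes tested. In WT 19 were called lower and 4 higher, beside 37.4% and 40.9%. Trim28, a corepressor of retroelements, changed by -1.28 ± 0.06 with RA in C48S (adjusted p = 2.26e-17), and Rif1, which acts at telomeres and in silencing, by -1.495 ± 0.046 in C48S (adjusted p = 5.41e-25) and -2.30 ± 0.05 in WT (adjusted p = 2.12e-30). All 10 tested genes of a list of 11 for telomere and genome maintenance were called higher in C48S RA than in WT RA (median 0.53), against 28.8% of all genes tested. Among them was Tert, the catalytic subunit of telomerase, at 36.2 CPM in C48S RA and 22.3 CPM in WT RA (0.70 ± 0.09, adjusted p = 1.48e-08). Before RA 5 of these 10 were called higher in C48S and 2 lower (median 0.18), beside 27.5% and 28.1% of all genes tested.

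**Figure D5:**
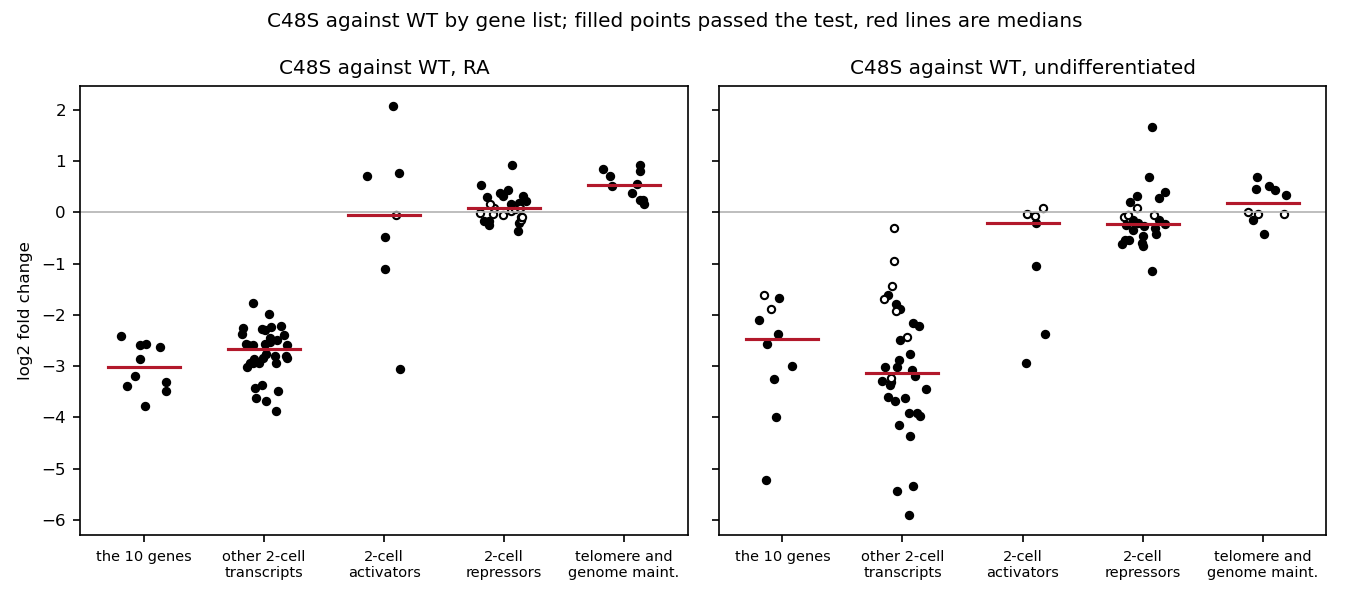
Log2 fold changes of C48S against WT after RA (left) and before RA (right) for the 10 genes and 4 lists, with filled points for an adjusted p under 0.05 and red lines at the medians. After RA the 10 genes lie at -2.42 or below and the other 2-cell transcripts at -1.78 or below, activators spread to both sides of 0 with Duxf3 the lowest at -3.05, and all 10 telomere genes lie above 0. Before RA some of the lowest points are fitted values of genes without a count in C48S undifferentiated.

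Markers of the cells' state were looked at as well. Summed over 7 pluripotent cell markers, the level was 587 to 611 CPM in C48S RA and 311 to 326 CPM in WT RA, and 4140 to 4514 CPM in C48S undifferentiated and 4197 to 4363 CPM in WT undifferentiated. After RA 6 of the 7 were called higher in C48S and 1, Dppa5a, lower. Between the lines, 28.8% of all genes tested were called higher in C48S and 25.7% lower after RA, and 27.5% higher and 28.1% lower before RA. The counts of calls for each set of markers are to be read beside these shares, so a few calls in a set say little. All 12 genes of an RA response list were called higher with RA in each line, against 39.0% of all genes tested in C48S and 40.9% in WT. This count is no support of its own, because the list names genes of the RA response. Cyp26a1, Hoxb1 and Stra6 also averaged below the filter's 0.952 CPM in both undifferentiated groups, so they were tested only because they are high after RA. Between the lines after RA, 6 of the 12 were called higher in C48S and 5 lower. Cyp26a1, which breaks down RA, was at 536 CPM in C48S RA and 246 CPM in WT RA (1.13 ± 0.05, adjusted p = 5.23e-20). Stra8 was at 232 CPM in C48S RA and 408 CPM in WT RA (-0.81 ± 0.05, adjusted p = 1.51e-16). The summed level of 8 fibroblast and feeder markers was 177 to 190 CPM in C48S RA and 178 to 191 CPM in WT RA, and 465 to 626 CPM in C48S undifferentiated and 371 to 403 CPM in WT undifferentiated. The sum before RA was carried by Col1a1, at 270 CPM in C48S undifferentiated and 143 CPM in WT undifferentiated, while of the 8 genes 3 were called higher and 4 lower in C48S before RA, and 1 higher and 4 lower after RA. For 8 primitive endoderm markers it was 332 to 342 CPM in C48S RA and 252 to 269 CPM in WT RA, and 78.5 to 90.2 CPM in C48S undifferentiated and 117 to 120 CPM in WT undifferentiated. For 8 trophoblast markers it was 330 to 357 CPM in C48S RA and 561 to 576 CPM in WT RA, and 65.7 to 77.1 CPM in C48S undifferentiated and 56.8 to 68.6 CPM in WT undifferentiated. After RA this sum was carried by Krt18 and Krt8, which were lower in C48S, whereas the trophoblast factors Cdx2 (3.68), Eomes (1.86) and Tfap2c (0.87, log2 changes) were called higher, so 3 of the 7 tested were called higher and 2 lower. For 6 germ cell markers it was 293 to 312 CPM in C48S RA and 481 to 510 CPM in WT RA, and 32.4 to 37.3 CPM in C48S undifferentiated and 356 to 387 CPM in WT undifferentiated. This sum was carried by Stra8 and, before RA, Dazl, at 7.02 CPM in C48S undifferentiated and 330.2 CPM in WT undifferentiated. After RA 1 of the 6 was called higher in C48S (Ddx4) and 2 lower, and before RA 0 were called higher and 3 lower. None of these markers was at 0 in all libraries, though Elf5, a trophoblast factor, stayed at or below 0.379 CPM on average in every group. The part of these other cell states in the results was not tested.

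The genes whose pattern over the 12 libraries was most like the Zscan4 family sum, by Pearson's r of log2 CPM (prior count 2) and leaving out the family copies, were Atxn1 (0.998), Fbxl20 (0.998), Gm12794 (0.998), Jak2 (0.996), Stim1 (0.996), Klhl24 (0.995), Pdlim3 (0.995) and Scpep1 (0.994). These r describe 4 groups of 3 libraries, and the libraries of a group share their condition. Atxn1 had 52.3 CPM on average in C48S RA and 101 in WT RA, and 12.8 in C48S undifferentiated and 29.6 in WT undifferentiated, so it follows the order of the 10 genes with smaller steps. Gm12794, which is in the list of 2-cell transcripts, kept that order too, with 7.97 CPM in C48S RA and 37.7 in WT RA, and 0.0638 in C48S undifferentiated and 1.36 in WT undifferentiated. Unlike the 10 genes, Gm12794 passed edgeR's test of the interaction (1.91 ± 1.02, adjusted p = 0.0370), with few counts in C48S undifferentiated. Among the 10 genes, r with the Zscan4 sum was 0.992 for Usp17le, 0.974 for Tcstv1, 0.960 for Tmem92, 0.956 for Zfp352, 0.941 for Usp17la and 0.937 for Tcstv3, and between 0.976 and 0.996 for the Zscan4 members, whose own counts are in the sum.

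Genes next to these loci were also looked up. The closest tested genes around Tmem92, Gm11546 (14.3 kb away) and Gm11545 (19.5 kb), were lower in C48S RA than in WT RA (-3.14 ± 0.25, adjusted p = 1.93e-14, and -2.82 ± 0.39, adjusted p = 8.51e-09). D13Ertd608e, 46.8 kb from Tcstv1, and BC147527, 8.1 kb from Tcstv3, were lower as well (-3.66 ± 0.53, adjusted p = 2.74e-09, and -3.12 ± 0.32, adjusted p = 1.33e-11), as was Gm21761, 17.3 kb from Tcstv1 and in the list of 2-cell transcripts (-2.56 ± 0.22, adjusted p = 5.43e-13). Around the Zscan4 cluster the closest tested genes were further away, with Zik1 at 298.8 kb (-0.46 ± 0.11, adjusted p = 0.000801) and Zfp551 at 801 kb (0.39 ± 0.22, adjusted p = 0.138). Fam160a2, 508.5 kb from the Usp17la and Usp17le loci, was slightly higher in C48S RA (0.33 ± 0.05, adjusted p = 4.52e-06), and Trim30d on their other side lower (-1.11 ± 0.34, adjusted p = 0.00509). Cdkn2b and Elavl2, which flank Zfp352 at 877.8 and 1025 kb, changed by -0.42 ± 0.14 (adjusted p = 0.0131) and 0.17 ± 0.12 (adjusted p = 0.210).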

How the data were processed

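Per the labels' protocols, ribosomal RNA was removed from total RNA before the libraries were made. The submitters' processing notes name STAR 2.7.9a, DESeq2 and mm39. The deposited values were raw read-pair counts per gene, made by the authors with featureCounts 1.6.3 per the file headers, with the strand option at 2, assignment by largest overlap, Ensembl GRCm39 release 104 gene models and without the option that counts pairs mapping to several places. Symbols came from GENCODE M21, an annotation of another build used for names and transcript sequences, and matched 52083 of 55416 identifiers (94.0%).

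The test was edgeR's quasi-likelihood test (version 4.0.16, R 4.3.3). Genes were kept by filterByExpr at a minimum count of 10, libraries were scaled by TMM, and 4 group means were fitted robustly over all 12 libraries with 8 residual degrees of freedom. The family sums were tested in the same way after the copies had been replaced by 1 row per family. SEs are Wald SEs and are approximate where counts are few, so an SE and the quasi-likelihood p can differ. A fold against a group at 0 is a bound that takes 3 counts for the whole group. A fold against 1 to 3 counts has an exact 95% interval. Both cover counting error only. At these totals genes near 0.1 CPM rest on about 1 pair per library, so low levels are imprecise. The scripts were tested on simulated data. Alternatives were RLE scaling, DESeq2 1.42.0, no low-count filter, the compared groups alone, the replicate number as a block, sums over the members alone and each library left out in turn.

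The 10 genes, the lists and the comparisons were chosen with earlier results of these data known. Named are the 10 genes, copies with at least 10 counts, up to 6 genes per list with the smallest adjusted p (any gene of a list with at most 5 calls), the 8 genes most like the Zscan4 sum and the nearest tested genes; Usp17le-ps had too few counts and was not tested. The single marker genes named beside the marker sums were chosen after their values were seen.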

Additional observations from a re-analysis of the deposited data

Results flagged for a closer look

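None of the 10 genes and none of the family sums passed edgeR's test of the interaction (Benjamini-Hochberg adjusted p under 0.05), which 39.4% of all genes passed. Of the other genes named above, 27 passed it and so differed between the lines in their RA response (positive for a larger rise or smaller fall in C48S). Many of the named genes were picked for a small adjusted p in their list, so the 27 are not to be set against that share. Zscan4-ps3 differed by 1.23 ± 0.47 on the log2 scale (adjusted p = 0.0161), Gm12794 by 1.91 ± 1.02 (adjusted p = 0.0370) and Pdlim3 by 1.99 ± 0.98 (adjusted p = 0.0284), and all 3 rest on few counts in C48S undifferentiated. Among activators, Dppa3 differed by 2.31 ± 0.31, Nr5a2 by 2.14 ± 0.19, Klf5 by 0.81 ± 0.08, Dppa4 by 0.62 ± 0.08, Dppa2 by 0.57 ± 0.08 and Nelfa by -0.90 ± 0.08, with adjusted p between 3.55e-12 and 7.85e-07. Among repressors and telomere genes, L3mbtl2 differed by 0.89 ± 0.07, Trim28 by 0.86 ± 0.08, Rif1 by 0.80 ± 0.07, Tert by 0.69 ± 0.12, Ehmt2 by 0.63 ± 0.07 and Lin28a by -1.58 ± 0.08, with adjusted p between 4.86e-18 and 1.48e-05. Among markers of other cell states, Cdx2 differed by 7.10 ± 0.45, Dazl by 3.43 ± 0.15, Pou5f1 by 1.65 ± 0.12, Eomes by 1.32 ± 0.26, Stra8 by 0.78 ± 0.15, Tfap2c by 0.69 ± 0.13, Ddx4 by 0.41 ± 0.13, Col1a1 by -0.85 ± 0.19, Krt18 by -2.06 ± 0.18 and Krt8 by -2.95 ± 0.19, with adjusted p between 5.76e-19 and 0.0143. Of the neighbours of Zfp352, Elavl2 differed by 0.56 ± 0.15 (adjusted p = 0.00221) and Cdkn2b by -0.78 ± 0.24 (adjusted p = 0.00932). With 3 libraries per group, single libraries were not screened for outliers.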

How the results depend on the processing

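The number of genes called in each comparison stayed within 1.5 times under every alternative, and no change called among the 10 genes or the family sums turned round. RLE scaling, the replicate block and fits of the compared groups alone changed no call among them. The last could be run for 5 of the 10 genes and 2 of the 3 sums before RA, since the others did not pass the filter there. None of the 10 reached the filter's cut in C48S undifferentiated. When that group was fitted with only the group compared to it, the genes were tested only because they are high in the latter. Those fits, before RA and with RA in C48S, are therefore no support of their own. DESeq2 and the fit without a low-count filter each added 1 call, Usp17la in the interaction. The replicate numbers do not pair the libraries (correlations of deviations between -0.053 and 0.029), and with the replicate block the Zscan4 sum changed by -2.51 after RA, the Usp17l sum by -3.38 and the Tcstv sum by -3.33. With the members alone the interaction of the Zscan4 sum was 0.062 (adjusted p = 0.842). Leaving out single libraries ended 9 of the calls of single genes and added 10, all before RA or in the interaction. The interaction ranged from 0.082 to 0.51 for the Zscan4 sum, called without C48S undifferentiated replicate 2, and from -0.90 to -0.67 for the Usp17l sum, called without C48S RA replicate 1. That of the Tcstv sum ranged from -1.04 to 2.83 and was called in none. The causes were not tested. Few counts before RA, above all in C48S, limit the values of Zscan4f, Usp17la, Tcstv1, Tcstv3 and Zfp352.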
